A study of Caenorhabditis elegans with 4 samples.

Results

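The regions described here are the 370 stretches of chromosome IV at which a GFP-tagged form of the transcription factor UNC-130 was called as bound in Caenorhabditis elegans larvae of the first stage (L1). They are all the lines of the deposited region list that lie on that chromosome, 13.6% of the 2715 regions in the list (95% exact binomial interval over regions 12.4% to 15.0%). The animals were fed hermaphrodites of strain OP77, which carry the unc-119(ed3) allele on chromosome III and the transgene wgIs77, and were grown at 20 °C. The transgene holds unc-119(+) and a copy of unc-130 fused to TY1, EGFP (a green fluorescent protein) and 3xFLAG tags. Chromatin carrying the fusion protein was pulled down through its EGFP part with goat antibodies and sequenced (ChIP-seq) in 2 libraries, and 2 libraries of input DNA were made beside them. All 4 libraries come from the same transgenic strain. No library from animals without the transgene was analysed here. The transgene was delivered by bombardment and marked by rescue of unc-119, the genotype lists no lesion in unc-130 itself, and the chromatin came from whole larvae, so each region is a sum over every cell that makes the fusion protein.

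UNC-130 is a forkhead-domain transcription factor of the FoxD family. It acts as a repressor of unc-129, which encodes a TGF-beta family ligand made in body wall muscle that guides axons and migrating cells along the dorsoventral axis, and it is needed for the specification of some chemosensory neurons. The gene unc-129 lies on chromosome IV and unc-130 itself on chromosome II, by the RefSeq gene table of assembly WBcel235. Chromosome IV is also the home of most genes for piRNAs, the small germline RNAs that bind the Argonaute protein PRG-1 and silence foreign sequences. That table places 14714 of 15363 piRNA genes (95.8%) on this chromosome, against 78 to 202 on each of the others, and 3281 protein-coding genes (16.4%). The regions are given on another release, WormBase WS180. They were therefore not set against the positions of unc-129, of the piRNA genes or of any other gene, and whether a region lies in a promoter, an intron or an exon was not analysed here.

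The list is named as combined and holds 1 value per region, a q value from the peak caller PeakSeq. No value belongs to a single library, so no replicate could be set against the other, and the depth of reads is unknown. Every interval below covers counting over regions only, and neighbouring regions are not independent of each other. Chromosomes are set side by side as descriptions, with no test of their differences.

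Binding on chromosome IV was sparse relative to its length. The 370 regions ran from position 102937 to 17488918, a span of 17.4 Mb, and covered 183 kb, or 1.05% of it. That coverage was the lowest of the 6 chromosomes, the others having 1.12% (V) to 1.84% (I). The density was 21.3 regions per Mb, next to 20.9 on V and below the 26.3 to 41.8 per Mb of I, II, III and X. Chromosome IV held 17.4% of the summed spans and 13.6% of the covered bases. Set against gene number in place of length, it had 11.3 regions for every 100 protein-coding genes of the WBcel235 table, close to the 11.6 of chromosome II. Chromosome V had 8.73 and chromosome I had 21.8, so chromosome IV was not among those richest in bound regions on either scale.

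The regions were concentrated towards the left end. When the span was cut into 3 equal parts of 5.80 Mb, the left part held 159 regions (43.0%, exact binomial interval 37.9% to 48.2%), the middle part 111 (30.0%, 25.4% to 35.0%) and the right part 100 (27.0%, 22.6% to 31.9%). The densities of the parts were 27.4, 19.2 and 17.3 regions per Mb. In complete windows of 1 Mb, those at 0 to 1, 1 to 2, 3 to 4 and 4 to 5 Mb held 29, 31, 30 and 30 regions, more than any other window. The window between them, at 2 to 3 Mb, had 20. The emptiest was at 14 to 15 Mb, with 13, beside one of 27 at 13 to 14 Mb. Over all 17 complete windows the median was 21 regions.

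**Figure D1:**
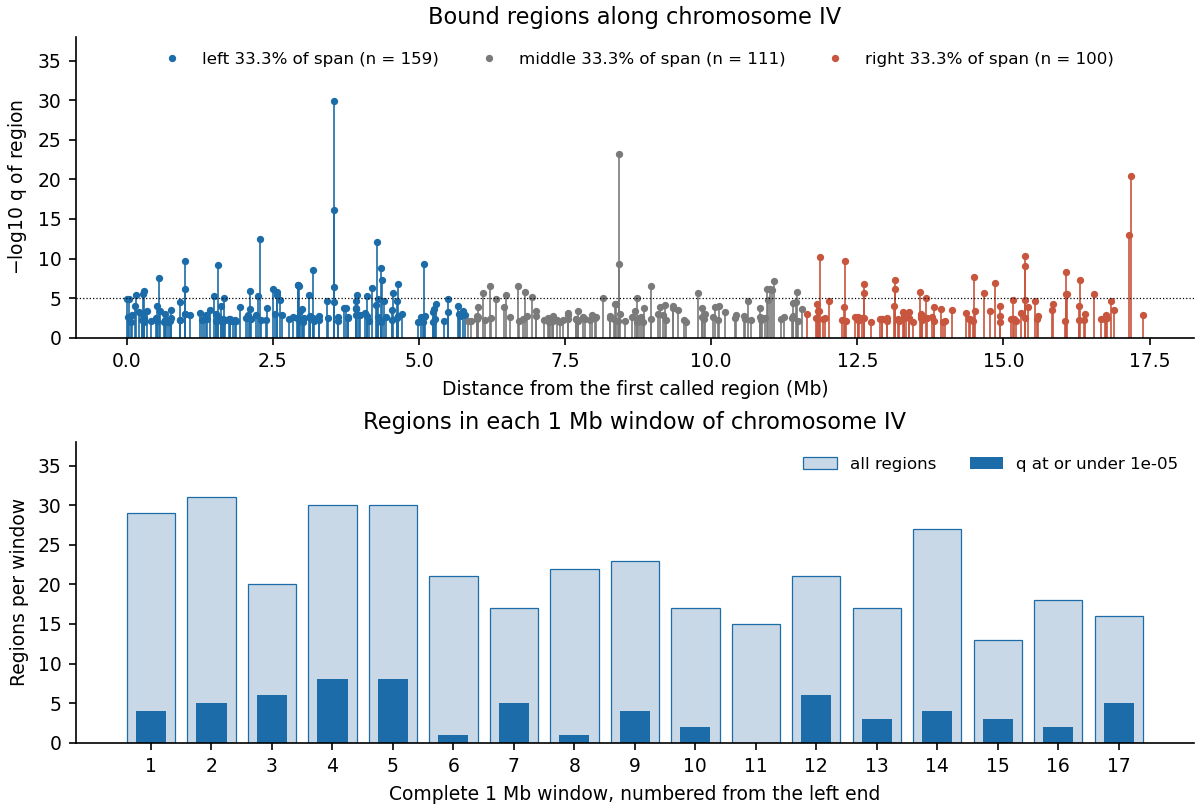
Upper panel, each of the 370 regions of chromosome IV as a line whose height is −log10 of its q value, against distance in Mb from the first called region, coloured by part of the span; the dotted line marks a q value of 1e-05. Lower panel, the number of regions in each complete 1 Mb window (light bars) and the number with a q value at or under 1e-05 (dark bars). The left part has the most regions, 159, and the tallest lines stand in all 3 parts.

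The excess on the left was larger in number of regions than in bases. The left part held 1.59 times as many regions as the right part but 1.21 times as many covered bases, 68.6 kb against 56.7 kb. Regions there had a mean width of 431 bp, against 567 bp on the right. The medians were 373 bp on the left (95% order-statistic interval 327 to 392 bp), 361 bp in the middle (333 to 407 bp) and 415 bp on the right (348 to 474 bp), and these intervals overlapped. Regions at least 1000 bp wide made up 6.29% of the left part (10 regions), 12.6% of the middle part (14) and 9.0% of the right part (9), again with overlapping intervals. Medians of −log10 q in the 3 parts had overlapping intervals too. The value was 2.92 on the left (2.70 to 3.32), 2.69 in the middle (2.56 to 3.00) and 2.89 on the right (2.55 to 3.38).

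Of the whole list 51.7% of regions had a q value of 0.001 or less, and of those on chromosome IV 168 of 370 did (45.4%, 40.3% to 50.6%). The median −log10 q of 2.87 (2.70 to 3.02) was the lowest of the 6 chromosomes, where the others lay between 2.95 and 3.17, and its interval overlapped those of II, III, V and X but not that of I (3.04 to 3.29). At stricter levels the shares were near the background. A level of 1e-05 or less was met by 69 regions (18.6%, 14.8% to 23.0%) against 19.9% of the list. One of 1e-10 or less was met by 9 regions (2.43%, 1.12% to 4.57%) against 3.24%. When the whole list was cut into 4 equal parts, from the most to the least significant, chromosome IV held 90, 73, 103 and 104 regions. Of the 17 complete windows, 1 had no region at or under 1e-05. It lay at 10 to 11 Mb, where the best of 15 regions had a q value of 2.17e-05.

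The most significant region of the chromosome stood in a tight group near 3.65 Mb. It lay at 3652215 to 3654628 (2414 bp, q = 1.23e-30). The region of rank 4 on the chromosome, at 3646362 to 3648103 (1742 bp, q = 7.55e-17), was in the same group. Between these was a region of 400 bp at 3648842 to 3649241 (q = 2.75e-05), and to the right one of 435 bp at 3655851 to 3656285 (q = 4.27e-07). The 4 regions spanned 9924 bp, of which they covered 50.3%, and the gaps inside were 738, 2973 and 1222 bp. On the left the group was 93769 bp from the next region and on the right 54295 bp.

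The second most significant region, at 8526769 to 8529402 (2634 bp, q = 7.04e-24), was the only one of the first 10 in the middle part. A region of 525 bp at 8525920 to 8526444 (q = 4.51e-10) ended 324 bp before it. The regions of rank 3 and 5 were consecutive at the far right end, with few other regions near them. These lay at 17277085 to 17281618 (4534 bp, the widest of the chromosome, q = 3.28e-21) and at 17249710 to 17250280 (571 bp, q = 9.78e-14), 26.8 kb apart. To their left no region was called over 254 kb, and to their right none over 207 kb, after which came the last region of the chromosome, at 17488545 to 17488918 (374 bp, q = 0.00127).

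The other 5 of the 10 most significant regions were mostly of moderate width, near the chromosome's median of 373 bp. The sixth lay at 2388906 to 2389336 (431 bp, q = 2.99e-13) and the seventh at 4390519 to 4390842 (324 bp, q = 7.51e-13). The eighth lay at 15471328 to 15471775 (448 bp, q = 4.40e-11), and the tenth at 1108043 to 1108482 (440 bp, q = 2.04e-10). The ninth, at 11956246 to 11957505, was wider (1260 bp, q = 6.43e-11). Of the 10, 5 were at least 1000 bp wide and 5 were under 600 bp. There were 5 in the left part and 4 in the right.

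Width varied over 3 orders of magnitude, from 4 to 4534 bp, with a median of 373 bp (357 to 395 bp) and 25th and 75th percentiles of 264 and 562 bp. Most regions, 282 of 370 (76.2%), were at least 200 bp and under 1000 bp wide. The 33 regions of 1000 bp or more (8.92%, 6.22% to 12.3%) held 30.3% of the covered bases. In the whole list 7.40% of regions were that wide. Regions of 50 bp or less numbered 19 (5.14%, against 4.68% of the list) and had a median width of 15.0 bp.

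The widest regions were not always the most significant ones. Of the 5 widest, 3 were also the 3 most significant of the chromosome. The other 2 had ranks of 142 and 120 on the chromosome, with q values still under its median of 0.00135. They lay at 14610397 to 14613749 (3353 bp, q = 3.91e-04) and at 10933962 to 10937194 (3233 bp, q = 1.72e-04). The second of these had a call of 11 bp beside it, 690 bp away. Spearman's rho between width and −log10 q was 0.36 over the 370 regions, given as a description since both come from the same peak call. By width, the median −log10 q was 2.49 for regions of 50 bp or less, 2.32 for those over 50 and under 200 bp, 2.80 from 200 to under 400 bp, 3.35 from 400 to under 1000 bp and 3.79 for 1000 bp or more. None of the 55 regions under 200 bp had a q value at or under 1e-04, and the best of them had 1.66e-04. The level of 1e-05 was met by 17.8% of regions from 200 to under 400 bp (12.04% to 24.8%), 22.3% of those from 400 to under 1000 bp (15.5% to 30.4%) and 39.4% of those of 1000 bp or more (22.9% to 57.9%).

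**Figure D2:**
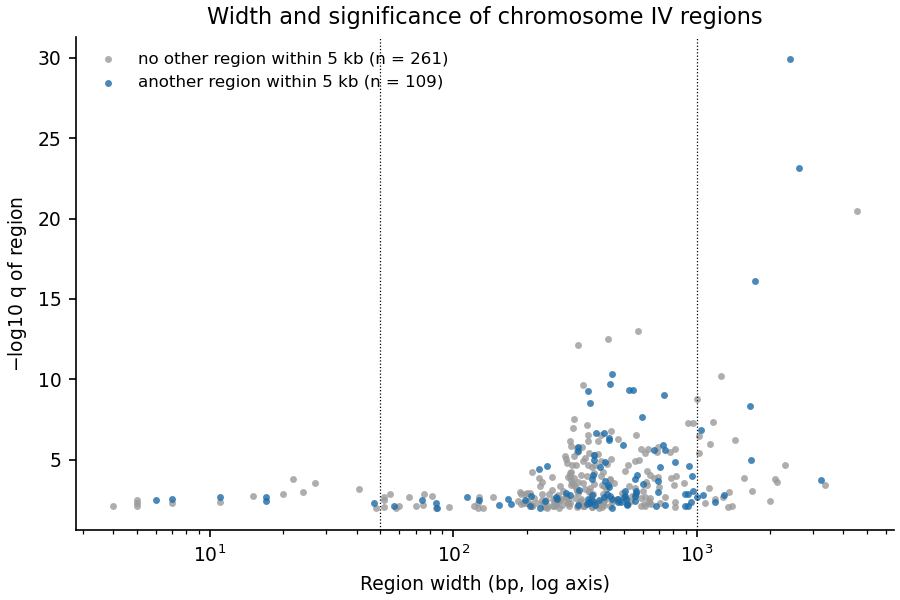
Each point is a region of chromosome IV, by its width in bp (log axis) and −log10 of its q value. Blue points have another region within 5 kb, grey points do not, and dotted lines mark widths of 50 and 1000 bp. No region under 200 bp has a q value at or under 1e-04, and the 3 highest points are wider than 2000 bp.

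Bound regions on chromosome IV were spaced widely. The 369 gaps between neighbouring regions, measured from edge to edge, had a median of 29.1 kb (25.5 to 35.0 kb) and a mean of 46.6 kb, with 25th and 75th percentiles of 10.04 and 66.5 kb. The median gap was longer than on every other chromosome, where it ran from 13.9 kb (I) to 24.8 kb (V). Chromosome V had nearly the same density and a mean gap of 47.5 kb. The intervals of the median on V (18.4 to 28.3 kb) and on II (14.6 to 25.9 kb) overlapped that of IV. There were 51 gaps over 100 kb on chromosome IV, which together made up 43.6% of the span. Long gaps were not particular to IV. Its longest was 280 kb, against 683 kb on II, 489 kb on V and 223 to 279 kb on I, III and X.

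The longest gap, of 280 kb at 4810713 to 5090703, interrupted the dense left part. The next 4 were all in the right part, with 254 kb at 16995874 to 17249709, 239 kb at 14225217 to 14464086, 234 kb at 15697161 to 15931266 and 221 kb at 12113486 to 12334370. In all, 7 of the 8 gaps over 200 kb were in the right part, 1 in the left and 0 in the middle. The median gap was 24.3 kb within the left part (17.3 to 29.7 kb), 40.3 kb within the middle (29.3 to 45.5 kb) and 28.8 kb within the right (21.7 to 48.3 kb). The middle and right parts had similar densities. In the right part 30.0% of regions had another within 5 kb (21.2% to 39.98%), and in the middle part 19.8% did (12.9% to 28.5%), with overlapping intervals. The left part had 35.8% (28.4% to 43.8%).

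**Figure D3:**
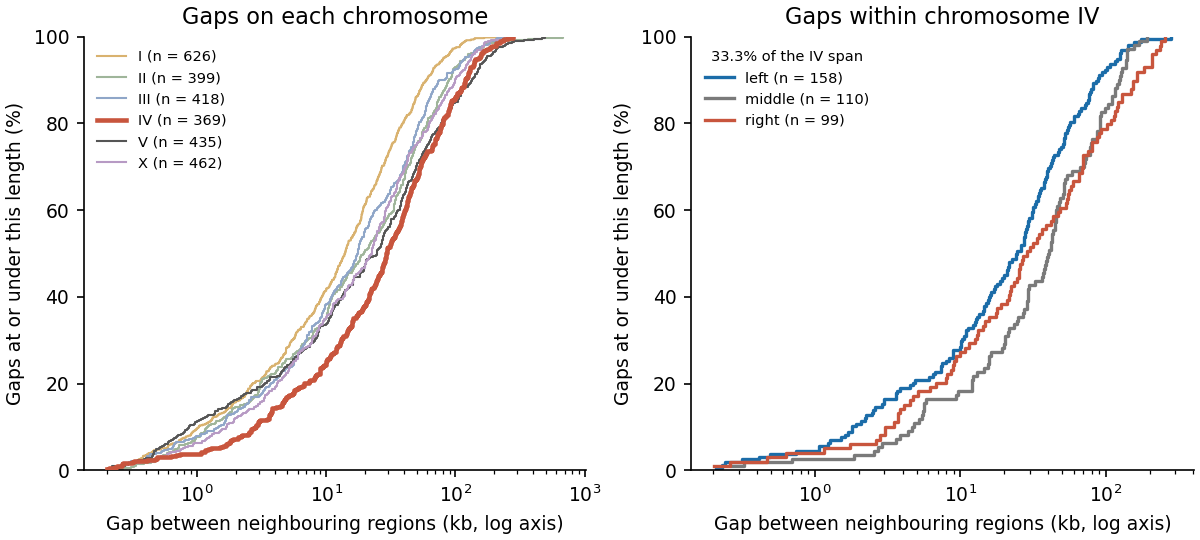
Cumulative share of the gaps between neighbouring regions at or under each length in kb (log axis), by chromosome (left panel, IV in bold red) and within the 3 parts of chromosome IV (right panel). The curve of IV lies right of the others over most short and middle lengths, with a median of 29.1 kb, and within IV the middle part has the fewest short gaps.

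Close neighbours were fewer on chromosome IV than on the other chromosomes. Another region lay within 5 kb of 109 of the 370 (29.5%, 24.9% to 34.4%). The share was 36.9% on X (32.5% to 41.5%) and between 40.6% and 47.8% on the rest. The interval of IV overlapped that of X and none of the others. These shares were not adjusted for density, which was 26.3 to 41.8 regions per Mb on I, II, III and X against 21.3 on IV. With all regions counted, the difference from chromosome V, of nearly the same density, lay largely in the shortest gaps. Gaps of 1 kb or less made up 3.79% of those on IV (14 gaps) and 11.0% of those on V. With such neighbours merged, the share with another region within 5 kb was 24.7% on IV (20.3% to 29.5%) and 27.6% on V (23.2% to 32.3%), still the lowest on IV but with overlapping intervals. The merged intervals of II (28.3% to 38.1%), III (27.7% to 37.3%) and X (25.7% to 34.5%) overlapped that of IV too, and only that of I did not. With only the regions at or under 0.001, the interval of IV (9.37% to 20.5%) overlapped those of II (19.4% to 32.1%) and X (18.7% to 29.9%). At that level the interval of IV did not overlap those of I, III and V. The share was 14.3% on IV and 27.98% on V (22.1% to 34.4%).

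Counts per 100 kb window varied less, relative to their mean, than on the other chromosomes. The variance of the count per 100 kb window was 1.10 times its mean over 172 windows on IV, and 1.51 (III) to 2.06 (V) times on the other chromosomes. The fullest windows of IV held 7 regions, and 23 windows (13.4%) held 0, against 25.5% on V at nearly the same mean count, 2.12 on IV and 2.09 on V. The ratio on IV stayed between 1.02 and 1.14 under the 6 other settings tried. With other window sizes and positions or without the narrowest regions, the lowest value among the other chromosomes was 1.39 to 1.49. The distance to the nearest chromosomes was smaller with neighbours merged, at 1.02 on IV, 1.19 on III and 1.23 on I, while V had 1.56. With only the regions at or under 0.001 the distance to the nearest chromosome nearly vanished, at 1.12 on IV, 1.15 on X and 1.24 on II. The ratio at that level was 1.33 on III, 1.40 on I and 1.80 on V, where the mean count was 1.04 against 0.96 on IV. These settings were chosen after the values had been seen. Counts of adjoining 100 kb windows had a Spearman's rho of -0.08 (171 pairs, a description).

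**Figure D4:**
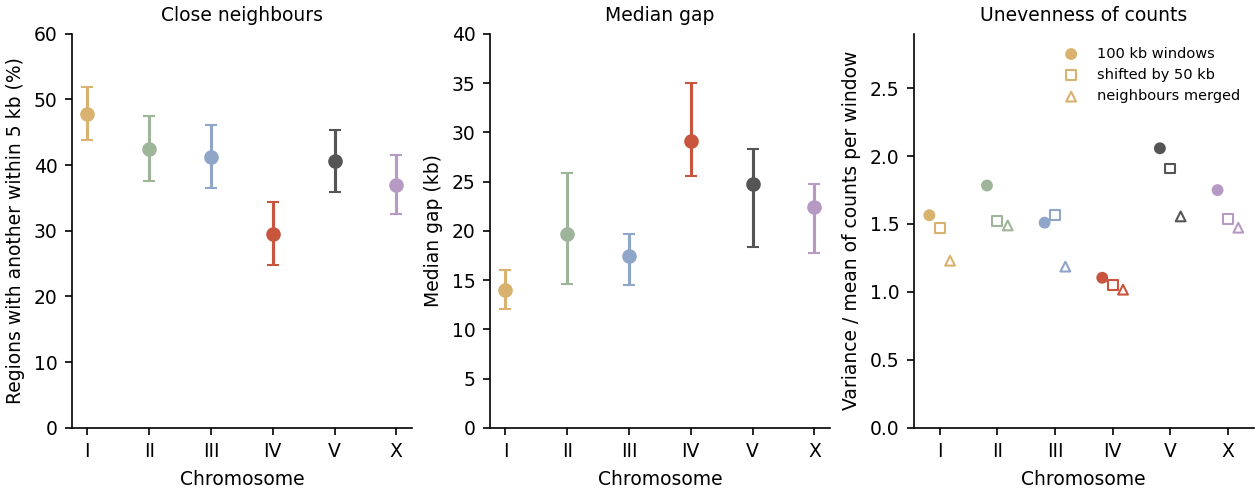
For each chromosome, the share of regions with another within 5 kb (%, exact binomial 95% intervals), the median gap in kb (order-statistic 95% intervals) and the ratio of variance to mean of the number of regions per 100 kb window, with windows shifted by 50 kb and with neighbours at most 1000 bp apart merged as open symbols. Chromosome IV has the lowest share (29.5%), the longest median gap (29.1 kb) and the lowest ratio (1.10).

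The fullest windows of 100 kb lay mostly in the left part. Those with 7 regions were at 3.0 to 3.1 Mb (widths 74 to 1019 bp, best q = 2.09e-07) and at 4.0 to 4.1 Mb (55 to 932 bp, best q = 3.51e-06). Those with 6 were at 0.3 to 0.4, 1.7 to 1.8, 4.4 to 4.5 and 7.3 to 7.4 Mb. None of these 6 windows held one of the chromosome's 10 most significant regions. At 7.3 to 7.4 Mb the best of the 6 regions had a q value of 0.00163.

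When regions at most 5 kb apart were chained, the 109 close neighbours formed 36 pairs, 7 groups of 3 and 4 groups of 4, and 261 regions stood alone. The 4 largest groups differed in strength. The one at 3.65 Mb held the regions of rank 1 and 4, as described. The group at 15468682 to 15476758 held the regions of rank 8 and 15 (the latter 735 bp wide, q = 9.48e-10), 628 bp apart, together with a call of 17 bp and one of 812 bp. In the group at 4021902 to 4028670 the regions were 557 to 932 bp wide, covered 45.8% of the stretch and had q values from 2.33e-05 to 0.00142. In the group at 13695690 to 13708269 they were 353 to 564 bp wide, covered 15.7% and had q values from 8.84e-04 to 0.00593. There were 11 pairs with a gap of 500 bp or less, the closest with 203 bp between a region of 1652 bp that ended at 16171099 and one of 325 bp that followed it.

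Regions with a close neighbour were wider than the others, with a similar median significance. Their median width was 435 bp (385 to 505 bp), against 354 bp (324 to 371 bp) for the 261 regions without another within 5 kb. Their median −log10 q was 2.82 (2.68 to 3.32), against 2.88 (2.66 to 3.05). The −log10 q of a region was nearly unrelated to that of the next one along the chromosome, with a Spearman's rho of 0.04 over 369 neighbouring pairs and of 0.07 over the 62 pairs at most 5 kb apart, both given as descriptions.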

How the data were processed

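The authors deposited 1 combined list of regions with a q value for each, called with PeakSeq on WormBase WS180, per the file headers and source column. Larvae were crosslinked with 2% formaldehyde, per the labels' protocols, whose extraction text speaks of embryos although the stage label is fed L1. The aligner, the PeakSeq version, the scaling to input and how replicates were combined were not stated in the sources used here. Libraries were grouped by their descriptions as ChIP or input DNA, and no value is per library. Computations used Python 3.11.15, numpy 2.4.6, pandas 2.3.3 and scipy 1.17.1, and were tested on simulated regions. Widths count both end bases, positions are midpoints, and the span runs from the first to the last region. Intervals are 95% exact (Clopper-Pearson) for shares and order-statistic for medians. No p-value was computed. The named regions were the 10 most significant, 5 widest, 5 longest gaps, 5 densest 100 kb windows and 3 largest groups, with ties. Others, such as the window at 10 to 11 Mb and the narrow calls beside named regions, were picked once their values had been seen. The members, lists and alternatives were chosen with earlier results of these data known.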

Additional observations from a re-analysis of the deposited data

How the results depend on the processing

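The 8 alternatives fixed for 9 results gave 55 values, of which 40 stayed within the interval of the reported value (for the number of regions, within 1.5 times it). With a q value at or under 0.001, 168 regions remained, with a median width of 428 bp, a median gap of 72.3 kb, 14.3% with a neighbour within 5 kb and a Spearman's rho of width and −log10 q of 0.20. In the more significant 50% of the list these were 163 regions, 431 bp, 78.8 kb, 13.5% and 0.17. Fewer regions give longer gaps by construction. Chromosome IV held 11.97% and 12.01% of the regions under these settings. Merging at 1000 bp gave 24.7% with a neighbour within 5 kb. The left part held 37.5% of covered bases, and 37.8% of regions without the window at 1 to 2 Mb. It kept the largest share of the 3 parts under every alternative. The ratio of variance to mean, with 6 alternatives added after the data were examined, moved by less than 1.5 times. That limit is wide enough to take in the main ratios of chromosomes I (1.56) and III (1.51), so meeting it does not show whether IV stayed apart. Unknown depth limits every value, and whether stretches with no region had enough reads was not tested. No paired analysis was possible because the combined list has no values of single replicates, so leaving one out could not be done either.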

Other observations

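On chromosome IV the share of regions with another within 5 kb did not fall steadily with significance. It was 36.7% in the most significant 25% of the whole list (33 of 90, exact binomial interval 26.8% to 47.5%), 20.5% in the next 25% (15 of 73, 11.98% to 31.6%), 35.9% in the one after (37 of 103, 26.7% to 45.97%) and 23.1% in the least significant (24 of 104, 15.4% to 32.4%). These intervals overlap for every pair of these 4 sets, and no test was made.

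Chromosome IV held 2 of the 10 most significant regions of the whole list, 4 of the top 25, 11 of the top 100 and 29 of the top 250 (11.6%, 7.91% to 16.2%), beside 13.6% of all. These sets are nested.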
